A study of Mus musculus with 6 samples.

Results

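The genes of cholesterol and fatty acid synthesis were followed in mouse bone marrow-derived macrophages with and without the macrophage scavenger receptor MSR1. The set held 35 of the 52550 genes in the table of read counts, taken by gene symbol from a written list of the pathway. It comprised 5 regulators of the sterol regulatory element-binding proteins (SREBPs), 19 genes of the sterol arm and 11 genes of the fatty acid arm, and the arms are reported apart. All 35 passed the filter on low counts, which left 16402 genes to test.

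RNA-seq libraries were made from macrophages of C57BL/6 mice with the genotype MSR1 KO (3 libraries) or MSR1 WT (3 libraries). In both groups, bone marrow cells had grown for 7 days with 25 ng/ml of macrophage colony-stimulating factor and had then shared a transwell co-culture with bone marrow stem cells (BMSCs) for 48 h, so every value below comes from co-cultured cells. The study calls the libraries biological replicates, but which animal or culture gave each library is not stated, so p-values measure the spread between these libraries. The labels do not describe the knockout allele, and the ages of the mice are not given in the sources used here.

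In animal cells, cholesterol is built from acetyl-CoA through mevalonate, squalene and lanosterol, and fatty acids are built from acetyl-CoA through malonyl-CoA by fatty acid synthase and then lengthened and desaturated. SREBPs are membrane-bound transcription factors: when sterols are low, the escort protein SCAP carries them from the endoplasmic reticulum to be cut and released, and INSIG proteins hold SCAP back when sterols are plentiful. Macrophages take up modified lipoproteins through scavenger receptors such as MSR1, and they both make and export cholesterol.

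Total counts per library ranged from 36143518 to 47417448. The targeted gene Msr1, on chromosome 8 from 39581685 to 39642673 on the minus strand (positions here are those of the table, which match GRCm38 for most genes), had 2118, 1825 and 2000 counts for MSR1 KO and 7543, 9163 and 9219 counts for MSR1 WT (replicates 1, 2 and 3 in turn, as in each such list below). After scaling by trimmed mean of M values (TMM), this was a log2 fold change of -2.02 (SE 0.135, edgeR quasi-likelihood test, adjusted p = 0.00124), so each library matched its label, although transcripts of Msr1 were still counted in the MSR1 KO libraries. Levels below are CPM, counts relative to the TMM-scaled library total. A positive log2 fold change means higher in MSR1 KO, and a gene is said to rise or fall where edgeR's adjusted p was under 0.05. Over all tested genes the median log2 fold change was -0.0023.

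Scd1 and Me1 of the fatty acid arm and Fdft1 of the sterol arm fell in MSR1 KO macrophages, and none of the 35 genes rose. Of all tested genes 2.66% fell and 2.25% rose by the same test. By the study's own definition of a differentially expressed gene (DEG), a fold change over 1.5 with an unadjusted p under 0.05, 2 of the 35 genes were lower (Scd1 and Me1) and 0 were higher, against 5.05% and 3.59% of all tested genes. At an unadjusted p under 0.05 alone, 8 of the 35 were lower and 1 was higher, where the background was 10.2% lower and 8.65% higher. The highest MSR1 KO library was under the lowest MSR1 WT library in 9 of the 35 genes, and the reverse held in 1, compared with 13.4% and 12.1% of all tested genes. The shares of lower genes were thus at or above those of all tested genes and the shares of higher genes below them, but they rest on few genes and the set as a whole was not tested.

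**Figure D1:**
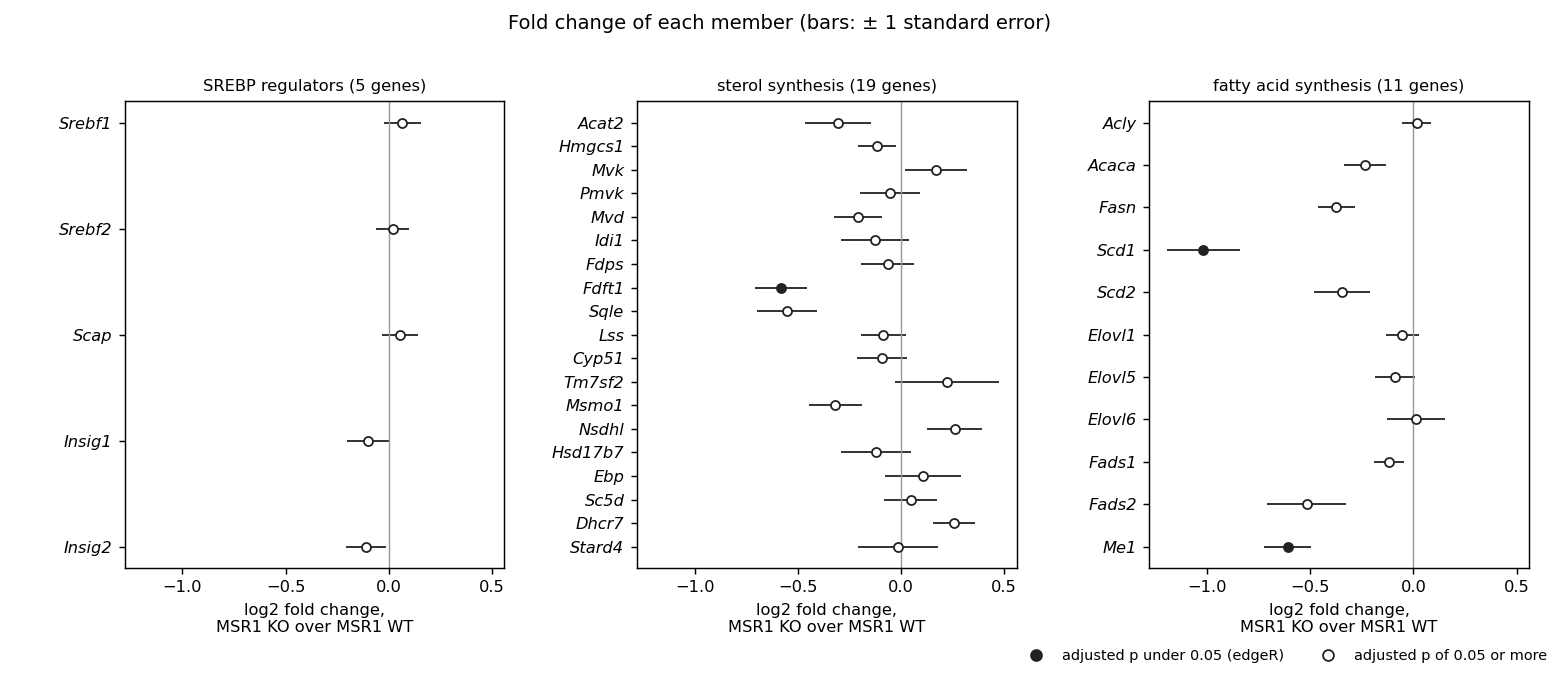
Log2 fold change of each of the 35 genes (x axis, MSR1 KO over MSR1 WT, 3 libraries each) with a bar of 1 standard error on each side, in the panels SREBP regulators, sterol synthesis and fatty acid synthesis. Filled points mark edgeR adjusted p under 0.05: Fdft1 at -0.58, Scd1 at -1.02 and Me1 at -0.61.

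The 5 regulators gave no call in either direction by edgeR or by DESeq2's Wald test, and 0 of them had an unadjusted p under 0.05. Srebf1, whose protein chiefly drives fatty acid genes, had 47.3, 44.3 and 46.9 CPM for MSR1 KO and 39.6, 46.6 and 46.0 CPM for MSR1 WT. Srebf2, whose protein chiefly drives sterol genes, had 81.7, 91.8 and 80.2 CPM against 83.2, 85.8 and 81.4 CPM. In both genes the groups overlapped.

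Scap, the escort of the SREBPs, had 69.9, 83.8 and 73.8 CPM for MSR1 KO and 71.5, 72.1 and 75.4 CPM for MSR1 WT. Insig1, which retains SCAP and is itself an SREBP target, had 37.6, 36.7 and 37.2 CPM against 36.6, 45.7 and 37.3 CPM. Insig2, the related retention protein, had 20.3, 18.6 and 17.9 CPM against 20.2, 20.5 and 20.6 CPM. For Insig1 a single MSR1 WT library, replicate 2, stood above the other 5, and all 3 genes overlapped between groups.

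The log2 fold changes of the regulators ran from -0.11 for Insig2 to 0.07 for Srebf1, with adjusted p from 0.607 to 0.931 in edgeR's quasi-likelihood test. The 95% intervals of the log2 fold change were -0.14 to 0.27 for Srebf1 and -0.16 to 0.20 for Srebf2. Gene counts do not separate the transcripts of Srebf1, and neither the cutting nor the nuclear amount of an SREBP is measured by RNA-seq. The direction of 4 of these 5 genes (Srebf1, Srebf2, Scap and Insig1) turned when 1 library was left out, so these 4 are given no direction here. Insig2 stayed below 0 with 1 library left out (-0.156 to -0.0664), but its groups overlapped and it did not pass the test.

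Of the 19 genes of the sterol arm, 1 fell, none rose and 18 did not pass the test. The log2 fold changes had a median of -0.09 and ran from -0.58 for Fdft1 to 0.26 for Nsdhl. They were below 0 for 13 genes and above 0 for 6, and the median came to -0.0382 without MSR1 WT replicate 1, -0.0433 without MSR1 KO replicate 3 and -0.0447 without MSR1 KO replicate 1. At an unadjusted p under 0.05, Fdft1, Sqle and Msmo1 were lower and Dhcr7 was higher. The shares of all tested genes were 2.66% that fell, and 10.2% lower and 8.65% higher at that unadjusted p.

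The opening steps from acetyl-CoA to mevalonate are represented by Acat2, the cytosolic thiolase that joins acetyl-CoA units, and Hmgcs1, HMG-CoA synthase. Hmgcs1 had 43.0, 42.8 and 36.9 CPM for MSR1 KO and 47.4, 41.9 and 43.7 CPM for MSR1 WT, and the groups overlapped (log2 fold change -0.12, SE 0.09, edgeR adjusted p = 0.568). Acat2 ran from 5.45 to 7.19 CPM in MSR1 KO and from 7.04 to 8.18 CPM in MSR1 WT, with a log2 fold change of -0.31 (SE 0.16, edgeR adjusted p = 0.351). Of the 50-base stretches in Acat2 transcripts, 39.1% also occur in the neighbouring paralogue Acat3, so the split of reads between this pair is uncertain.

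Hmgcs1 is shown because it is a classic SREBP target and was the only gene of the 28 with a matched promoter to hold the letters searched as the core of a sterol regulatory element (SRE), TCACNCCAC. The stretch is the 250 bases before its RefSeq start, GRCm38.p6 chr13:119690101-119690350, plus strand, 5′ to 3′. Capitals mark the SRE core, whose first base lies at -137 from the start, and the matches to the CCAAT box (CCAAT, 3 on the minus strand) and the GC box (GGGCGG, 1 on each strand), none of which overlap.
Hmgcs1: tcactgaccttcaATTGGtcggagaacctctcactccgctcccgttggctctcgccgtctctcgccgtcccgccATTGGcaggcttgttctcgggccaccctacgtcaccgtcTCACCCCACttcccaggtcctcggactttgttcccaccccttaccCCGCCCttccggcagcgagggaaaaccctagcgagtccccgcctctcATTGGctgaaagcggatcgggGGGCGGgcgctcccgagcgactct

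Promoter windows of 300 bases, 250 before and 50 after the start, were available for 28 of the 35 genes, in 38 windows. The SRE core was found on either strand in 1.24% of all 32851 promoter windows and in 1.44% of all 27025 genes. The CCAAT box was found in 23 of the 28 genes against 41.1% of all genes, and the GC box in 23 of the 28 against 38.2%. Within the sterol arm, 14 of 15 genes held a CCAAT box and 14 of 15 a GC box, while of the 8 fatty acid genes 5 held a CCAAT box and 4 a GC box. The E-box CACGTG was found in 6 of the 28 genes against 8.09% of all genes. These are matches of letters, not measured binding sites, and Fdft1, Sqle, Scd1, Scd2, Fdps, Fads1 and Stard4 had no matched window.

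Mevalonate is phosphorylated by the products of Mvk and Pmvk, decarboxylated by that of Mvd and isomerized by that of Idi1, before Fdps joins the units into farnesyl diphosphate. Pmvk had 9.72, 11.03 and 10.1 CPM for MSR1 KO and 12.0, 11.02 and 8.96 CPM for MSR1 WT. Mvd had 9.13, 9.70 and 9.70 CPM against 10.9, 10.5 and 11.6 CPM, the one gene of this stretch whose groups did not overlap (log2 fold change -0.21, SE 0.12, edgeR adjusted p = 0.391). Mvk, Idi1 and Fdps had log2 fold changes of 0.17, -0.13 and -0.06 with overlapping groups, and none of these 5 genes passed the test. In Fdps, 26.7% of exon bases overlap the gene Gm43738 on the same strand, which reached no more than 0.315 CPM in any library.

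Squalene is made from farnesyl diphosphate by squalene synthase, the product of Fdft1, and this is the first step given over to sterols alone. Fdft1 had 2375, 2598 and 3391 counts for MSR1 KO and 4538, 5403 and 3397 counts for MSR1 WT. Scaled, these were 66.1, 65.3 and 73.0 CPM against 110.1, 113.9 and 82.2 CPM. The MSR1 KO libraries lay close together and below all MSR1 WT libraries, of which replicates 1 and 2 were far above and replicate 3 was the nearest to MSR1 KO.

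Fdft1 fell from 102.1 ± 17.3 CPM in MSR1 WT to 68.1 ± 4.22 CPM in MSR1 KO (mean ± SD, n = 3 each). The log2 fold change was -0.58 (SE 0.13, 95% interval -0.87 to -0.29, edgeR quasi-likelihood test with Benjamini-Hochberg adjustment, adjusted p = 0.0402), a fold of 1.498 that fell just short of the DEG definition. Without MSR1 WT replicate 3 the edgeR adjusted p was 0.00668, and without any other single library it was 0.0793 to 0.153. The call was also lost without the filter on low counts (edgeR adjusted p = 0.0629). The gene lies on chromosome 14 from 63145150 to 63179578 on the minus strand, and 18.3% of its exon bases overlap Ctsb (cathepsin B) on the opposite strand. Ctsb was present at 13990 to 15480 CPM in the 6 libraries, with a log2 fold change of 0.0003 (edgeR adjusted p = 0.998), and the strand setting of the counting is not given in the sources used here, so reads of the shared stretch cannot be told apart. The part of such reads in the Fdft1 difference was not tested.

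Sqle, squalene epoxidase, carries out the next step, a rate-limiting one. It had 7.35, 6.81 and 7.85 CPM for MSR1 KO and 12.4, 9.99 and 9.90 CPM for MSR1 WT, without overlap. Its log2 fold change was -0.55 (SE 0.14, 95% interval -0.88 to -0.22), but it missed the threshold over all genes (edgeR adjusted p = 0.0740). Under DESeq2's Wald test the adjusted p of Sqle was 0.0216, the only 1 of the 12 alternatives that called it. With 1 library left out the edgeR adjusted p of Sqle was 0.0919 to 0.231. Almost none of its transcript is shared with another gene (0.0358% of 50-base stretches), and no overlapping exon was annotated.

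Lanosterol is then formed by Lss and trimmed to cholesterol by Cyp51, Tm7sf2, Msmo1, Nsdhl, Hsd17b7, Ebp, Sc5d and Dhcr7, while Stard4 carries sterol between membranes. Msmo1, a methylsterol oxidase, had 22.0, 16.8 and 17.1 CPM for MSR1 KO and 24.1, 24.0 and 21.6 CPM for MSR1 WT (log2 fold change -0.32, SE 0.13, edgeR adjusted p = 0.223). MSR1 KO replicate 1 reached into the MSR1 WT range, so the groups overlapped.

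Dhcr7, the reductase that completes cholesterol, had 29.4, 26.9 and 28.4 CPM for MSR1 KO and 25.2, 20.9 and 24.9 CPM for MSR1 WT. It was the 1 gene of the 35 with every MSR1 KO library above every MSR1 WT library (log2 fold change 0.26, SE 0.10, edgeR adjusted p = 0.223). Nsdhl, a sterol dehydrogenase, had a log2 fold change of 0.26 as well, with a larger SE of 0.13 and overlapping groups (edgeR adjusted p = 0.353). Neither passed the test.

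Ebp, a sterol isomerase, had 37.7, 32.8 and 38.2 CPM for MSR1 KO against 42.9, 33.8 and 24.5 CPM for MSR1 WT, the MSR1 WT group spanning the whole MSR1 KO range. Lss, Cyp51, Tm7sf2, Hsd17b7, Sc5d and Stard4 had log2 fold changes of -0.09, -0.09, 0.22, -0.12, 0.05 and -0.01, all with overlapping groups and edgeR adjusted p of 0.707 or more. In Tm7sf2, 12.1% of exon bases overlap Vps51 on the same strand, which averaged 48.55 CPM against 4.09 CPM for Tm7sf2. Vps51 was higher in every MSR1 KO library (log2 fold change 0.26, edgeR adjusted p = 0.154), so the Tm7sf2 value is uncertain. The late steps thus held small differences of both signs and no call.

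**Figure D2:**
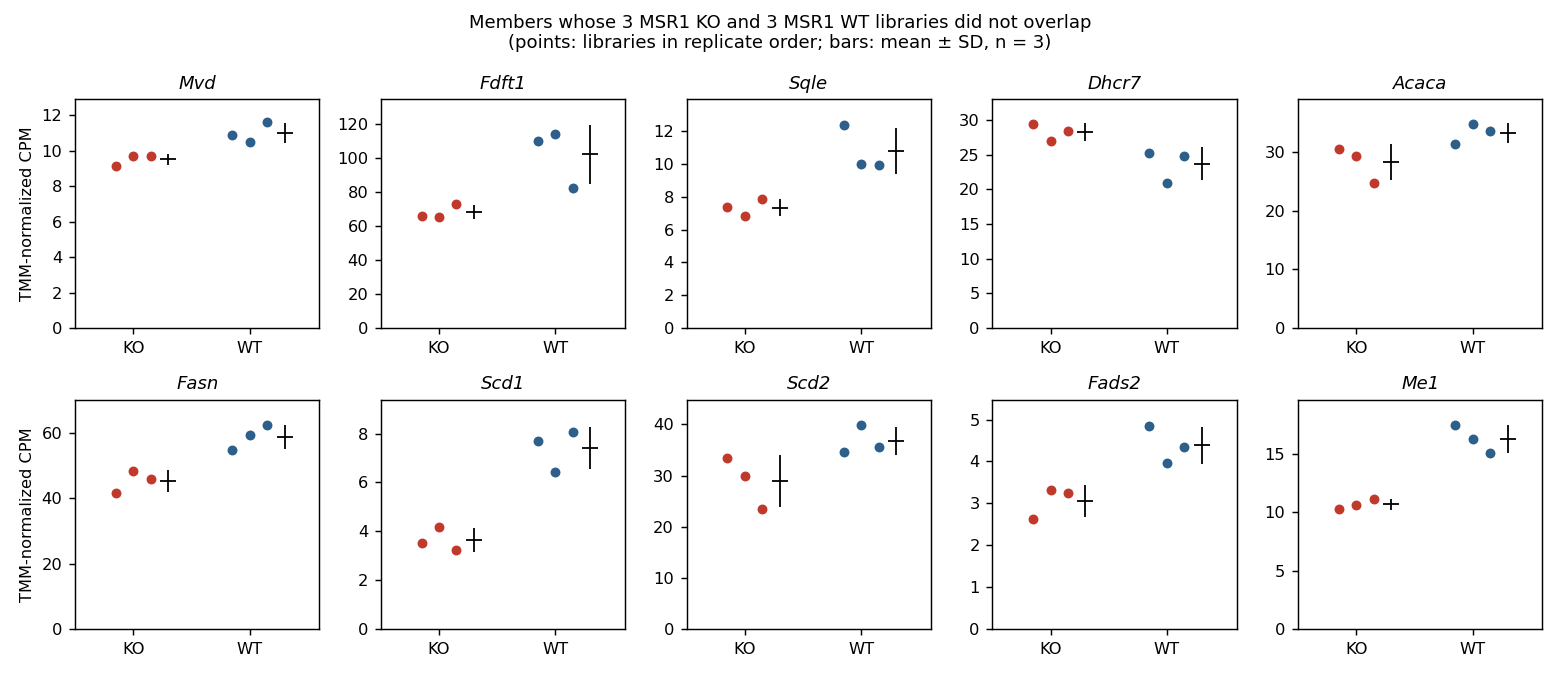
TMM-normalized CPM (y axis, from 0) in each library for the 10 genes whose groups did not overlap, with points for MSR1 KO and MSR1 WT replicates 1 to 3 and bars for mean ± SD (n = 3). The MSR1 KO points lie lower in 9 genes and higher in Dhcr7, and in Fdft1 the third MSR1 WT library (82.2 CPM) sits nearest to the MSR1 KO libraries.

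Of the 11 genes of the fatty acid arm, 2 fell, none rose and 9 did not pass the test. The log2 fold changes had a median of -0.24 and ran from -1.02 for Scd1 to 0.02 for Acly, with 9 genes below 0 and 2 above. The median came to -0.148 without MSR1 KO replicate 3 and -0.288 without MSR1 KO replicate 1. At an unadjusted p under 0.05, 5 genes were lower (Scd1, Me1, Fasn, Fads2 and Scd2). In 6 of the 11, these 5 and Acaca, the groups did not overlap, with MSR1 KO lower. The shares of all tested genes were 2.66% that fell, 10.2% lower at that unadjusted p and 13.4% without overlap and lower. No test of the arm as a whole was run. Whether the fatty acid and sterol arms differ was not tested.

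Acetyl-CoA and reducing power for the pathway come from ATP citrate lyase (Acly) and cytosolic malic enzyme (Me1), which yields NADPH. Acly had 190.1, 207.5 and 183.5 CPM for MSR1 KO and 192.4, 193.5 and 188.4 CPM for MSR1 WT. The MSR1 WT libraries lay within the range of MSR1 KO, and the log2 fold change was 0.02 (SE 0.07, edgeR adjusted p = 0.930).

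Me1, on chromosome 9 from 86581371 to 86695953 on the minus strand, had 369, 421 and 518 counts for MSR1 KO and 719, 772 and 623 counts for MSR1 WT. Scaled, these were 10.3, 10.6 and 11.2 CPM against 17.4, 16.3 and 15.1 CPM. Each group was tight and the gap between them was wider than either group.

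Me1 fell from 16.3 ± 1.179 CPM to 10.7 ± 0.443 CPM (mean ± SD, n = 3 each). The change on the log2 scale was -0.61 (SE 0.11, 95% interval -0.87 to -0.35, edgeR adjusted p = 0.0267). Leaving out single libraries gave values between -0.66 and -0.56, and the edgeR adjusted p was 0.0321 without MSR1 WT replicate 3 and 0.0612 to 0.110 without any of the other 5. Of its 50-base stretches, 21.1% also occur in the annotated gene Gm7049, which was not analysed here, so the share of reads counted for Me1 is uncertain.

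Me1 is the called gene with a promoter in the reference, and the 250 bases before the more upstream of its RefSeq starts are shown, GRCm38.p6 chr9:86695915-86696164, minus strand, 5′ to 3′. Capitals mark matches to the GC box, all on the opposite strand of the gene, of which the last pair adjoin without overlap. Neither the SRE core, the CCAAT box nor the E-box occurs in these letters.
Me1: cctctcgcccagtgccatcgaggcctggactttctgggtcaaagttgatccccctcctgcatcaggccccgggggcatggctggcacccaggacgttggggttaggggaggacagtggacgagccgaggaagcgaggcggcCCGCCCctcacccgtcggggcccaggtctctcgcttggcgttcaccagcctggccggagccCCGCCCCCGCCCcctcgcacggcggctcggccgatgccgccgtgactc

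Acaca, acetyl-CoA carboxylase, makes malonyl-CoA, and Fasn, fatty acid synthase, builds palmitate from it. Acaca had 30.6, 29.4 and 24.8 CPM for MSR1 KO and 31.4, 34.7 and 33.6 CPM for MSR1 WT (log2 fold change -0.24, edgeR adjusted p = 0.267). Fasn had 41.7, 48.5 and 45.9 CPM against 54.8, 59.3 and 62.4 CPM. In both genes the groups did not overlap, and the gap was wider for Fasn.

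The log2 fold change of Fasn was -0.37 (SE 0.09), and its edgeR adjusted p of 0.0553 lay just above the threshold. It was 0.0422 when scaled by library size alone, 0.0481 when only genes with at least 10 counts in every library were tested, and 0.0130 under DESeq2's Wald test. These were the only 3 of the 12 alternatives that called Fasn. With 1 library left out its edgeR adjusted p was 0.0746 to 0.1685. No 50-base stretch of Fasn is shared with another gene, whereas 29.2% of those of Acaca occur in Gm5182, which was not analysed here.

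Stearoyl-CoA desaturases put the double bond into newly made saturated fatty acids. Scd1, on chromosome 19 from 44394451 to 44407709 on the minus strand, had 127, 167 and 150 counts for MSR1 KO and 318, 305 and 333 counts for MSR1 WT. Scaled, these were 3.54, 4.20 and 3.23 CPM against 7.71, 6.43 and 8.06 CPM. Every MSR1 KO library was far below every MSR1 WT library.

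Scd1 fell from 7.40 ± 0.860 CPM to 3.65 ± 0.494 CPM (mean ± SD, n = 3 each). Its log2 fold change of -1.02 (SE 0.18, 95% interval -1.43 to -0.61, edgeR adjusted p = 0.0238), a fold of 2.03, was the largest of the 35 genes. Leaving out single libraries gave values between -1.13 and -0.93. The call was lost on leaving out MSR1 KO replicate 1 or 3 (edgeR adjusted p = 0.0807 and 0.0612) or MSR1 WT replicate 1 (0.101). The paralogue Scd2 was more abundant, with 33.5, 29.8 and 23.4 CPM for MSR1 KO and 34.7, 39.8 and 35.7 CPM for MSR1 WT. Its log2 fold change was -0.35 (edgeR adjusted p = 0.210), and only 2.66% of its 50-base stretches also occur in Scd1.

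The desaturases of polyunsaturated fatty acids, Fads1 and Fads2, and the elongases Elovl1, Elovl5 and Elovl6 complete the arm. Fads2 had 2.62, 3.32 and 3.25 CPM for MSR1 KO and 4.85, 3.96 and 4.33 CPM for MSR1 WT, without overlap (log2 fold change -0.52, SE 0.19, edgeR adjusted p = 0.187). Fads1 had 107.4, 105.9 and 114.7 CPM against 125.2, 113.0 and 117.4 CPM, with overlap (log2 fold change -0.12, edgeR adjusted p = 0.458).

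Elovl1 had 54.4, 60.5 and 61.8 CPM for MSR1 KO and 62.9, 59.8 and 60.7 CPM for MSR1 WT. Elovl5 had 55.3, 61.4 and 53.0 CPM against 57.8, 55.7 and 67.1 CPM. Both overlapped between groups, as did Elovl6, and the log2 fold changes of the 3 elongases ran from -0.09 to 0.01 without a call.

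**Figure D3:**
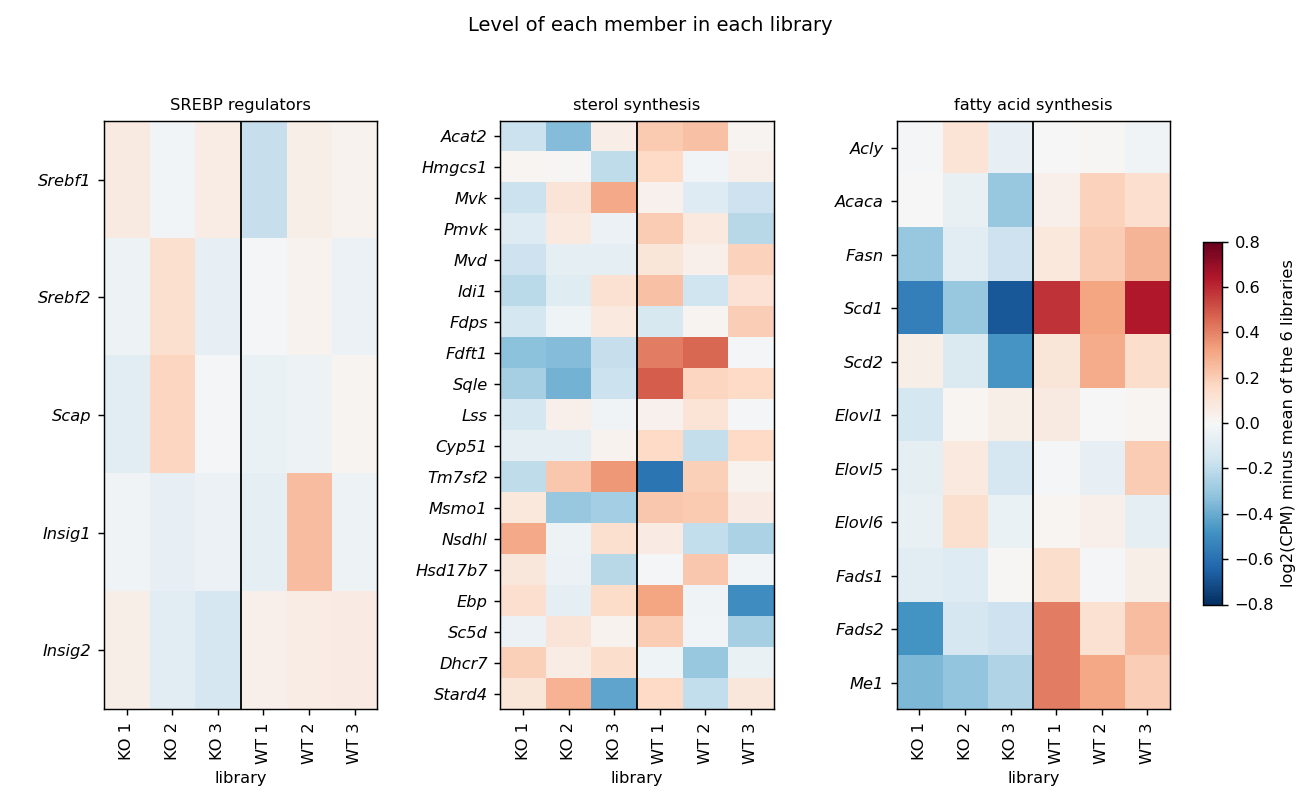
Color gives log2(CPM) minus the mean of the 6 libraries for each gene (rows, in 3 panels by arm) in each library (columns, MSR1 KO and MSR1 WT replicates 1 to 3). Scd1, Me1, Fdft1, Sqle and Fads2 are lower in every MSR1 KO library than in any MSR1 WT library, while no regulator is split in this way and single libraries stand out for Tm7sf2 and Ebp.

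Levels of different genes were compared per kilobase of exon. The highest of the 35 was Acly at 36.5 CPM per kb (mean of the 6 libraries), followed by Fads1 at 23.7, Elovl1 at 22.0 and Fdft1 at 20.1 CPM per kb. The level and rank of Fdft1 are uncertain, because 18.3% of its exon bases overlap Ctsb, which had 13990 to 15480 CPM. The strand setting of the counting is not given, and the part of Ctsb reads in the Fdft1 level was not tested. In the sterol arm Ebp (15.1), Hmgcs1 (9.28) and Pmvk (6.11 CPM per kb) came next after Fdft1, and Hsd17b7 (0.984) and Tm7sf2 (0.930 CPM per kb) were lowest. In the fatty acid arm Elovl5 (16.6), Scd2 (6.01), Fasn (4.76), Me1 (3.50) and Acaca (1.80 CPM per kb) followed. Scd1 (1.13) and Fads2 (1.13 CPM per kb) were at the low end with Elovl6 (1.03 CPM per kb), so the gene with the largest fold change was among the least expressed of its arm. The regulators lay between 5.66 CPM per kb for Insig2 and 12.5 CPM per kb for Insig1.

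**Figure D4:**
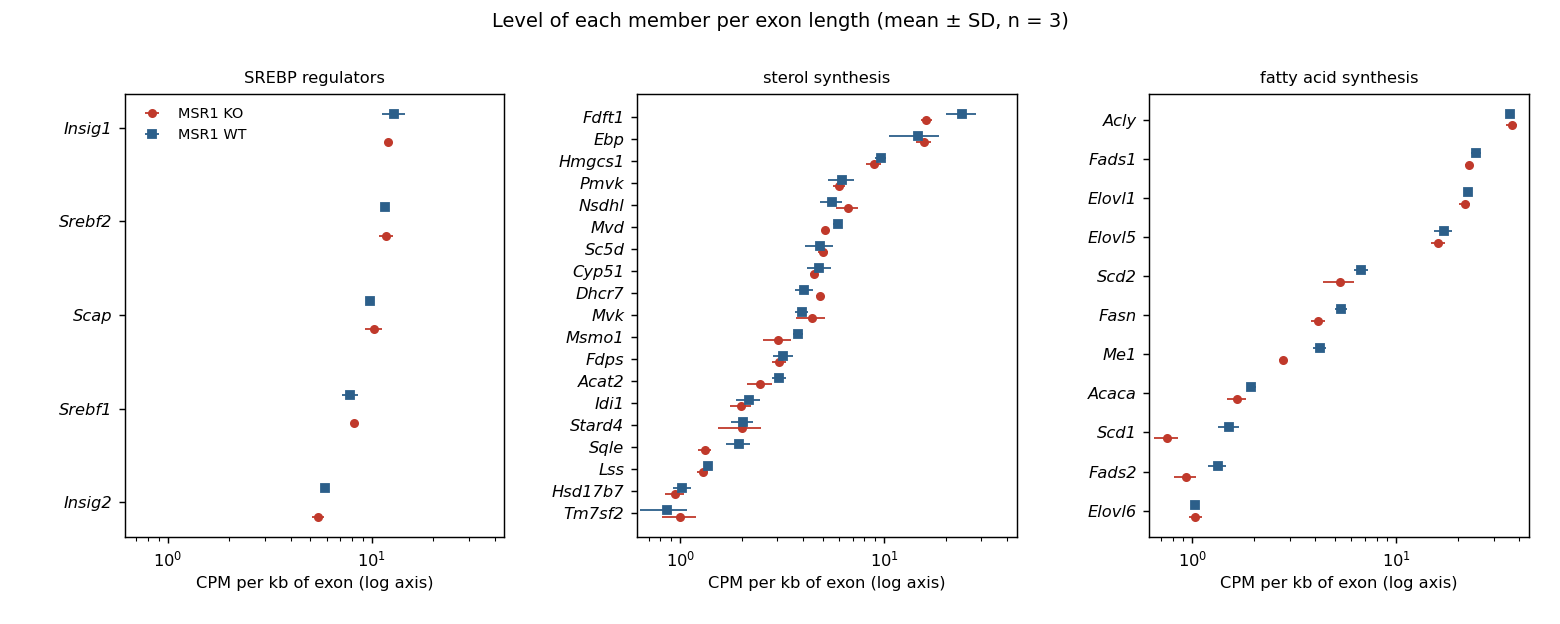
Mean level of each gene in CPM per kb of exon (x axis, log scale) in MSR1 KO (circles) and MSR1 WT (squares), with bars of 1 SD on each side (n = 3) and genes ordered by level within each arm. The order was set by the gene far more than by the genotype, from 36.5 CPM per kb for Acly down to 0.930 for Tm7sf2, and the symbols part most for Scd1.

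Genes of the same pathways outside the set were read from 2 further lists. Of 25 other sterol genes, 23 were tested, with a median log2 fold change of -0.06. Of these 1 rose and 0 fell, against 2.25% and 2.66% of all tested genes. The gene that rose was Npc2, the lysosomal carrier that hands cholesterol on for export, with 1248, 1244 and 1292 CPM for MSR1 KO and 1060, 925.4 and 1012 CPM for MSR1 WT. Its log2 fold change was 0.34 (SE 0.07, edgeR adjusted p = 0.0338), but leaving out any 1 of the 6 libraries lost the call (edgeR adjusted p from 0.0679 to 0.117).

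Cyp27a1, which oxidizes the sterol side chain, ran from 128.2 to 136.9 CPM in MSR1 KO and from 94.2 to 115.8 CPM in MSR1 WT (log2 fold change 0.30, edgeR adjusted p = 0.110). Under DESeq2's Wald test its adjusted p was 0.04915, and no other of the 12 alternatives called it. Of 35 other fatty acid genes, 26 were tested and 0 rose or fell by edgeR, with a median log2 fold change of 0.0041. At an unadjusted p under 0.05, 3 were lower and 1 was higher, against 10.2% and 8.65% of all tested genes. Under DESeq2's Wald test 1 gene of this list was lower.

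That gene was Fads3, a relative of Fads1 and Fads2, with 14.1, 21.9 and 16.2 CPM for MSR1 KO and 25.9, 26.9 and 26.3 CPM for MSR1 WT. It met the DEG definition (log2 fold change -0.60, SE 0.16) but had an edgeR adjusted p of 0.0734. The NADPH-yielding enzymes G6pdx, Idh1 and Pgd had log2 fold changes of -0.05, -0.17 and -0.21, and Pgd alone was without overlap, at 398.0 ± 5.34 CPM in MSR1 KO against 461.2 ± 35.9 CPM in MSR1 WT (mean ± SD, n = 3 each). None of the 3 passed the test, whereas Me1 did.

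Marker genes of the cells that the culture could hold were read beside these results. The 10 macrophage markers summed to 24840 to 26140 CPM in MSR1 KO and 25330 to 28220 CPM in MSR1 WT, led by Lyz2, Csf1r and Adgre1, which did not pass the test. Within that list Mrc1 fell while Fcgr1 and Ptprc rose. The 15 stromal markers, which BMSCs express, summed to 1681 to 2232 CPM in MSR1 KO and 2156 to 2733 CPM in MSR1 WT, led by Col1a2, Col1a1 and Sparc. Of these, 3 fell (Pdgfra, Pdgfrb and Cxcl12) and 0 rose, with a median log2 fold change of -0.37. The list did not move one way: the log2 fold change was below 0 for 11 markers and above 0 for 4 (Thy1, Nt5e, Eng and Lum). Thy1 and Eng were higher in every MSR1 KO library than in any MSR1 WT library (log2 fold changes 1.31 and 0.47, edgeR adjusted p = 0.0907 and 0.119), as Col1a2 and Col3a1 were lower in each. For the sum, only MSR1 KO replicate 2 overlapped the MSR1 WT range of the sum.

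The 12 adipocyte markers summed to 57.3 to 71.8 CPM in MSR1 KO and 70.5 to 92.0 CPM in MSR1 WT, nearly all of it Fabp4 and Pparg, which macrophages also express. Fabp4 was lower in every MSR1 KO library and met the DEG definition (log2 fold change -0.72, edgeR adjusted p = 0.101). Pparg had a log2 fold change of 0.03 with overlapping groups. Cidec, Lep, Cfd and Pck1 were at 0 counts in every library, which allows up to 3 counts in each, and no untested adipocyte marker, Adipoq and Plin1 included, exceeded 9 counts. Plin4, a lipid droplet protein, fell in MSR1 KO (log2 fold change -1.79, edgeR adjusted p = 0.0267). Marker genes other than the leading ones were named after their values were seen.

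The neutrophil list (10 genes, 0 called, led by Ngp, S100a9 and Ltf) summed to 703.8 to 1120 CPM in MSR1 KO and 459.0 to 851.7 CPM in MSR1 WT. All 10 had a log2 fold change above 0 (median 0.38), and 2 were higher in every MSR1 KO library than in any MSR1 WT library. Of these, Retnlg met the DEG definition (log2 fold change 0.99, edgeR adjusted p = 0.0721). The B cell list (6 genes, 2 tested, 0 called, led by Ighm and Cd79b) summed to 190.8 to 255.2 CPM and 124.4 to 164.4 CPM, and the erythroid list (7 genes, 1 tested, 0 called) reached 0.891 CPM at most. The B cell sums did not overlap, and Ighm met the DEG definition (log2 fold change 0.64, edgeR adjusted p = 0.0667). The 3 stromal markers that fell were lower in the same libraries as Scd1, Me1 and Fdft1, while Thy1 and Eng were higher there, and the part of stromal RNA in those differences was not tested. In bulk RNA, fewer cells of a type and less RNA per cell cannot be told apart.

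**Figure D5:**
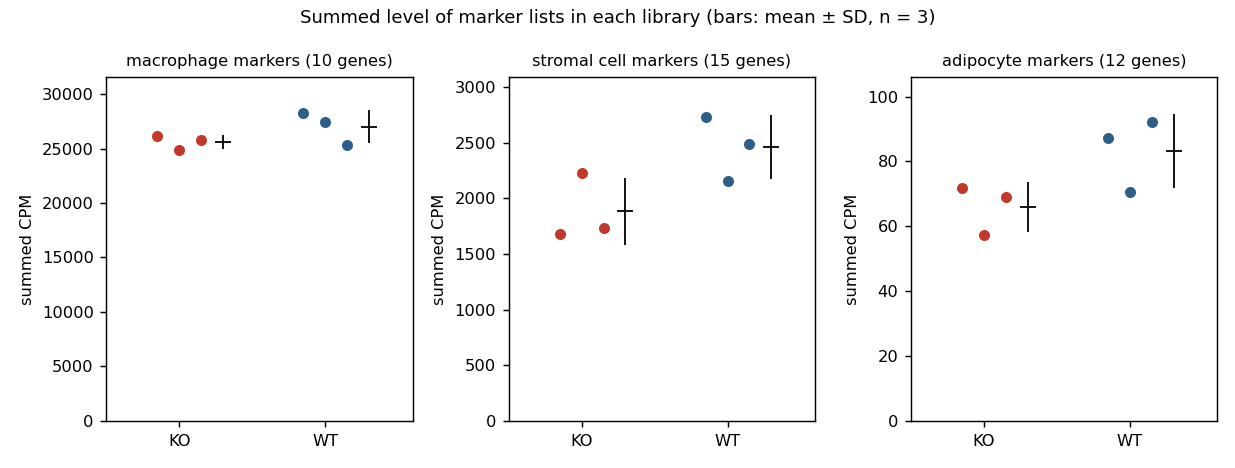
Summed CPM (y axis, from 0) of the macrophage, stromal and adipocyte marker lists in each library, with bars for mean ± SD (n = 3 each). The groups overlap in all 3 panels, the stromal sum being lowest in MSR1 KO replicate 1 (1681 CPM) and highest in MSR1 WT replicate 1 (2733 CPM).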

How the data were processed

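Co-cultured macrophages were profiled by RNA-seq, with 3 libraries per genotype. Per the labels, the submitters' processing notes name fastp 0.17.1, HISAT2 2.1.0, DESeq2 1.18.1 and R 3.4.3, whereas the paper's methods name TopHat and FPKM values. The authors deposited raw counts per gene. Beside them the table deposited by the authors gives a signal value for each library, made by dividing counts by size factors. It also gives the authors' own log2 values (fold changes) with a p-value, raw and adjusted. These values of the authors were not used. Neither the program that counted reads, nor its use of strand, nor the build is given in the sources used here. Of the identifiers, 52403 occur in GENCODE for GRCm38, 49909 with the same start and end, including 30 of the 35 genes described. No value column was left unmapped.

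Filtering (filterByExpr), TMM scaling and the quasi-likelihood test (glmQLFit, glmQLFTest) were run in edgeR 4.0.16 under R 4.3.3, with genotype as the one term. Benjamini-Hochberg adjustment covered all 16402 tested genes. A standard error is the absolute log2 fold change divided by the root of the F statistic. DEGs followed the study's definition. With 3 libraries against 3, an exact permutation test of 1 gene cannot give less than p = 0.1, so none is reported. Intervals are 95% intervals of the fit, and depth was 36143518 to 47417448 counts per library. The scripts were tested on simulated counts. Alternatives were DESeq2 1.42.0 with its Wald test, DESeq2 size factors, library size alone, no filter, at least 10 counts in every library, a replicate block and each library left out.

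The genes, the pathway lists and the macrophage, stromal, adipocyte, neutrophil, B cell and erythroid lists were chosen with earlier results of these data known. Values of every library are given for called genes, DEGs, the regulators and the 4 most abundant genes of each arm. Of the other pathway lists, called genes, DEGs and the 3 most abundant were to be named, of which 1 gene is not reported here, and of the marker lists the most abundant. Further markers and the library values of further genes of the set whose groups did not overlap were added after their values were seen. Promoters are RefSeq's for GRCm38.p6. Shared stretches are the distinct 50-base stretches of a gene's GENCODE transcripts that occur, on either strand, in a transcript of another gene.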

Additional observations from a re-analysis of the deposited data

How the results depend on the processing

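Scd1, Me1 and Fdft1 kept a negative log2 fold change in each of 12 alternatives, and no regulator was called in any. The genes called lower over all genes (436) numbered 847 under DESeq2's Wald test, 288 without a filter and 53 to 372 with 1 library left out, and those called higher (369) numbered 716, 237 and 18 to 407. Sterol genes called lower (1) numbered 2 under DESeq2, 0 without a filter, where Fdft1 had an edgeR adjusted p of 0.0629, and 0 to 1 with 1 library left out. Fatty acid genes called lower (2) numbered 0 to 2 with 1 library left out. Of the other pathway genes, 1 was called lower under DESeq2 and 0 to 1 with 1 library left out, and 2 were called higher under DESeq2 and 0 to 0 with 1 library left out. Sterol DEGs (0) numbered 1 with library size alone and 0 to 2 with 1 library left out, and fatty acid DEGs (2) numbered 1 to 2. With 1 library left out, the median log2 fold change was -0.29 to -0.15 in the fatty acid arm, -0.11 to -0.0382 in the sterol arm and -0.0445 to 0.0586 for the regulators.

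With library size alone, Srebf2 (-0.0129), Acly (-0.0147) and Elovl6 (-0.0209) changed sign. With 1 library left out, small log2 fold changes spanned 0: Srebf1 -0.0050 to 0.11, Srebf2 -0.0445 to 0.0607, Scap -0.0229 to 0.12, Insig1 -0.16 to 0.0084, Pmvk -0.16 to 0.0411, Fdps -0.14 to 0.0229, Ebp -0.0808 to 0.31, Sc5d -0.0623 to 0.17, Stard4 -0.17 to 0.17, Acly -0.0356 to 0.0592, Elovl1 -0.0840 to 0.0081, Elovl6 -0.0521 to 0.0494 and G6pdx -0.11 to 0.0050. The causes were not tested.

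Same-numbered libraries did not deviate together (correlations of -0.03, 0.02 and -0.0048). These correlations cannot tell whether same-numbered cultures were prepared together, which is not stated. With the replicate number as a block, 78 genes were called lower and 59 higher, with 0 of the sterol genes, 0 of the fatty acid genes and 0 of the other pathway genes called higher. The edgeR adjusted p under the block was 0.0793 for Scd1, 0.0851 for Me1 and 0.107 for Fdft1. With 3 libraries a group, Fasn and Sqle lay near the threshold (edgeR adjusted p = 0.0553 and 0.0740) and were called under DESeq2. Neither was called with 1 library left out, without a filter or under the block.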
